A study of Homo sapiens with 4 samples.

Results

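Of the 22702 TBX3 peaks found in both replicates of the series, 797 had their summit in an L1 element. These 797 regions are described here. TBX3, a T-box protein that binds DNA, is known mainly as a repressor of transcription, and the series studied it in 501mel, an established human melanoma cell line. The chromatin immunoprecipitation followed by sequencing (ChIP-seq) used an anti-HA antibody (12CA5) against TBX3 carrying an HA tag (TBX3-3xHA), with 2 ChIP samples and 2 input samples from cross-linked cells, and the labels name no treatment. How the tagged protein was expressed, and whether the replicates were separate cultures, is not given in the sources used here, so spread between replicates may be technical. The input samples were not analysed here. A region was a member when the authors' annotation of the replicate 1 summit named class LINE and family L1, and when that summit and a replicate 2 summit were each other's nearest within 200 bp. Replicate 1 held 1378 L1 summits among 32479 peaks, and 581 of them had no such partner.

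L1 elements, or LINE-1, are retrotransposons that spread through a genome by copying their RNA into DNA at a new site. Most copies are broken at their 5′ end and no longer move, and each copy carries a name that reflects when its lineage was active. L1HS is the human-specific lineage, L1PA and L1PB are primate lineages, L1MA to L1ME are progressively older mammalian lineages, and HAL1 is an old relative that lacks part of the element. Copies of the youngest lineages are the most alike, whereas copies of older lineages carry more mutations and are more easily told apart. The regions were divided by name into 250 primate regions (L1HS, L1PA, L1PB and other names starting with L1P) and 547 older regions (names starting with L1M, and HAL1). Of the primate regions only 100 were L1HS or L1PA2 to L1PA8, so the group is not made up of the youngest names alone. No L1 summit of replicate 1 fell outside these names, and 2 of replicate 2 did.

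Sequence could be shown for the 1 region whose replicate 1 summit lay inside a RefSeq window around a gene start (build GRCh38.p14, whose chromosomes are those of hg38). This was an L1MEc copy, an old lineage, on chromosome 9. The window runs from 250 bases before to 50 bases after the annotated start of the long non-coding RNA gene LOC124902118, on the plus strand at chr9:7656707-7657006. The authors' annotation, which did not name that gene, placed the summit in intergenic sequence 143008 bp from the start of DMAC1, a mitochondrial assembly factor. The 2 capital letters mark the summits at 7656798 in replicate 1 and 7656845 in replicate 2.
LOC124902118 window: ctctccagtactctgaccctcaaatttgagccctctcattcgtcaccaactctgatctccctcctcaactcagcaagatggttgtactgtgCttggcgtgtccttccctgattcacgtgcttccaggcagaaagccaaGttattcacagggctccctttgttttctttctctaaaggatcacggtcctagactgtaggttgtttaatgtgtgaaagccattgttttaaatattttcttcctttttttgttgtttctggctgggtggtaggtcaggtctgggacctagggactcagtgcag
The deposited peak score was 26.0 in replicate 1 and 53.5 in replicate 2, above the median of all shared regions in both lists (19.3 and 29.0). The T-box motif letters AGGTGTGA (or TCACACCT on the other strand) do not occur in this window, nor do the contained GGTGTGA and GGTGTG. Of the 35116 RefSeq windows of this length, 0.98% hold AGGTGTGA, 3.45% hold GGTGTGA and 16.8% hold GGTGTG on either strand. The absence says only that these letters are not in this window. Sequence around the other 796 summits is not shown.

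The strongest L1 regions carried old names. The authors' peak score, whose scale is not stated, was used only to order summits within a list. At the top of the 797 by the sum of their 2 ranks stood an L1ME1 copy on chromosome 6 (hg38; summits 164396118 and 164396145), in intergenic sequence 425945 bp from the nearest transcription start site (TSS), that of the non-coding MEAT6. Its scores were 418.4 in replicate 1 and 573.7 in replicate 2, ranks 87.5 of 32479 and 75.5 of 40494 with the highest score as 1. An L1MA2 copy on chromosome 11 (104219208 and 104219180) followed with scores of 425.6 and 531.5, 33383 bp upstream of a TSS whose gene the deposited table does not name. An L1ME3 copy on chromosome 17 (20469422 and 20469413) scored 378.4 and 563.7. It lay 1887 bp upstream of LGALS9B, which encodes a galectin, a sugar-binding protein. In each of these 3 old regions the 2 summits were at most 28 bp apart.

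An L1MEd copy in intron 1 of 14 of CRB1, a cell polarity gene of the retina, scored 373.6 and 571.8 on chromosome 1 (197265064 and 197265060), 3140 bp from a TSS. An L1M5 copy 14351 bp upstream of LRPAP1, a chaperone of lipoprotein receptors, scored 344.0 and 392.6 on chromosome 4 (3546848 and 3546841). Among primate names the highest was an L1PB1 copy on chromosome 3 (98645182 and 98645180), 51571 bp upstream of CPOX, an enzyme of haem synthesis. Its scores of 263.8 and 375.0 were both below those of the 5 leading old regions. A second L1PB1 copy on chromosome 12 (22437215 and 22437228) scored 215.8 and 253.4, 102501 bp upstream of ST8SIA1, the enzyme that makes the melanoma-associated ganglioside GD3.

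An L1PREC2 copy in intron 20 of 26 of STXBP5L, on chromosome 3 (121330911 and 121330931), scored 183.4 and 251.6, and its nearest TSS was that of POLQ, a DNA repair polymerase, 215095 bp away. An L1PA17 copy in intron 13 of 39 of SBF2, on chromosome 11 (9983151 and 9983126), scored 126.9 and 181.9 and led the L1HS and L1PA names, with LOC101928008 as its nearest gene at 144009 bp. The fifth primate region was an L1PA7 copy on chromosome 1 (66411570 and 66411584) with scores of 97.6 and 185.5, 57192 bp from a start of PDE4B, a phosphodiesterase that degrades cAMP. In each of these 10 regions the replicate 2 score was the larger number, as was the median over all shared regions, so the numbers are not comparable between lists.

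**Figure D1:**
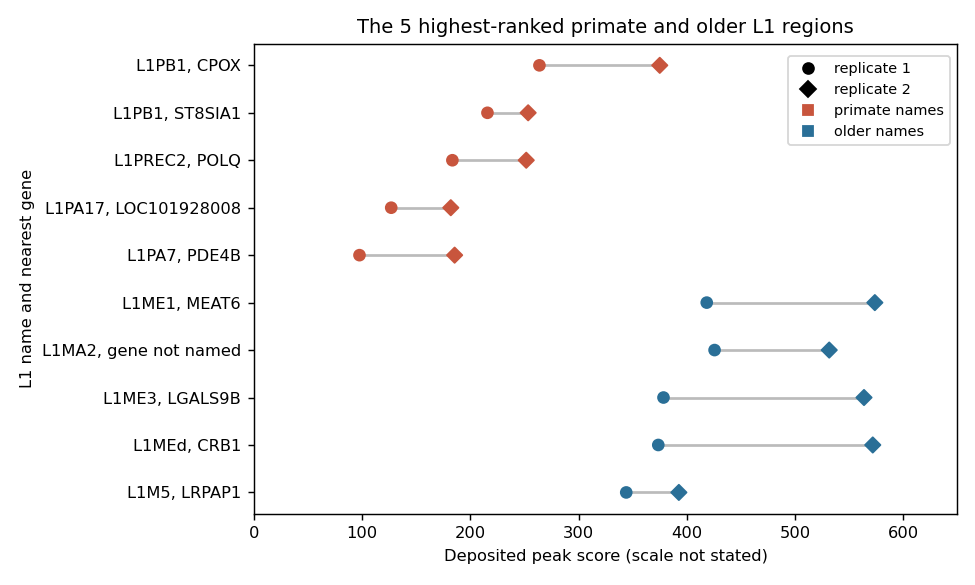
Deposited peak score (x axis, scale not stated) of the 5 highest-ranked primate and 5 highest-ranked older L1 regions, labelled by L1 name and nearest gene; circles are replicate 1, diamonds replicate 2, and a grey line joins them. The older regions reach from 344.0 to 425.6 in replicate 1, all above the primate regions, which reach from 97.6 to 263.8.

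In the other old lineages the leading regions were intronic except for HAL1. An L1MC4 copy lay in intron 1 of 21 of PDE6A, the rod photoreceptor phosphodiesterase, on chromosome 5 (149941573 and 149941587), with scores of 175.7 and 328.4. An L1MB7 copy lay in intron 3 of 5 of RGS20, a regulator of G-protein signalling, on chromosome 8 (53945248 and 53945288), with scores of 172.7 and 223.7. An L1MD2 copy lay in intron 1 of 9 of LIMS1, an adaptor of integrin adhesion, on chromosome 2 (108652684 and 108652652), with scores of 135.4 and 276.8. The leading HAL1 copy was intergenic on chromosome 6 (3963198 and 3963216), 58137 bp upstream of PRPF4B, a splicing-associated kinase, with scores of 148.6 and 220.5.

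Scores of all 797 regions ran from 2.06 to 425.6 in replicate 1, with a median of 16.6 and quartiles of 8.54 and 33.1. In replicate 2 they ran from 2.05 to 573.7, with a median of 28.0 and quartiles of 12.2 and 60.8. Across regions of this pair of libraries the 2 scores had a Spearman's rho of 0.863 (n = 797), which was 0.816 among the 250 primate and 0.881 among the 547 old regions. Among the 21905 shared regions outside L1 it was 0.851. These values describe sites that share their libraries and carry no test.

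**Figure D2:**
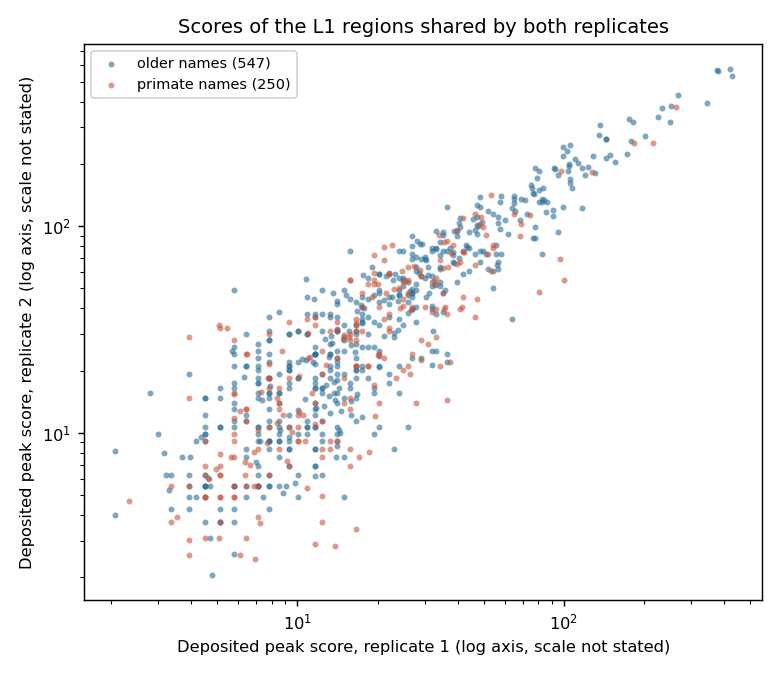
Deposited peak score of each of the 797 L1 regions in replicate 1 (x axis) and replicate 2 (y axis), both on log axes with a scale that is not stated; red points are the 250 primate regions and blue points the 547 older ones. The 2 scores rise together, and the points furthest to the upper right are older names, at 418.4 to 425.6 in replicate 1.

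The next question was whether primate and old regions differed in score. Scores were set against the median of all 22702 shared regions in the same list. Of the primate regions 98 of 250 were above it in replicate 1 (39.2%, 95% Wilson interval 33.4% to 45.4%), against 241 of 547 old regions (44.1%, 40.0% to 48.3%). By Fisher's two-sided exact test this gave an odds ratio of 0.819 (95% interval 0.603 to 1.11) and an adjusted p = 0.217 over the 6 tests of primate against old. In replicate 2 the counts were 110 primate regions (44.0%, 38.0% to 50.2%) and 279 old regions (51.0%, 46.8% to 55.2%), with an odds ratio of 0.755 (0.559 to 1.02, adjusted p = 0.0934, same exact test). A difference was not established in either list among these regions, all of which were kept because they had a partner. L1 summits without a partner, which scored low (medians of 5.12 and 6.22), did not enter, so scores of all L1 summits are not covered. With only L1HS and L1PA2 to L1PA8 taken as young, 36 of 100 regions were above the median in replicate 2 and the odds ratio was 0.540 (exact test, adjusted p = 0.00966), while replicate 1 gave 0.882. With L1MA counted among the young names the odds ratios were 0.660 (0.495 to 0.878) and 0.672 (0.507 to 0.890), and both passed.

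The single lineages spread widely. HAL1 had the highest share above the median, 16 of 25 regions in replicate 1 (64.0%, 44.5% to 79.8%) and 17 in replicate 2 (68.0%, 48.4% to 82.8%). L1MD had 9 of 32 in replicate 1 (28.1%, 15.6% to 45.4%), and L1MA had 29 of 95 (30.5%, 22.2% to 40.4%). Among names with at least 10 members, L1M5 stood highest with 10 of 12 regions (83.3%) above the median in both lists, with median scores of 31.2 and 74.9. L1PA3 had 35.7% of its 14 regions above it in replicate 1 and 14.3% in replicate 2. With 10 to 55 regions a name, these shares are descriptions. In the highest-scoring 10% of all shared regions, L1 placed 50 regions in replicate 1 (6.27% of L1 regions) and 60 in replicate 2 (7.53%). Of the other shared regions 10.1% stood there in each list. Of these L1 regions 7 in replicate 1 and 6 in replicate 2 were primate, which is 2.8% and 2.4% of the primate regions. Of the old regions 7.86% and 9.87% stood there. These shares were not tested.

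The number of regions per name did not follow age in a simple order. L1M1, an old name, had the most members, 55 of 797, followed by the primate L1PB1 with 35, L1MB7 with 31 and L1MC4 with 28. By lineage, L1HS and L1PA together held 158 regions, other L1M names 122, L1ME 120, L1MA 95, L1MB 78, L1MC 75, L1PB 70, L1MD 32, HAL1 25 and other L1P names 22. How many copies of each name the genome holds was not analysed here, so these counts are not rates of binding. The youngest names were rare. L1HS, the lineage still active in humans, had 5 summits in replicate 1 and 1 shared region, at 54789900 and 54789907 on chromosome 12, with scores of 19.6 and 12.1, intergenic and 64615 bp from the start of MUCL1. L1PA2 had 9 summits and 4 shared regions, all intergenic, with replicate 1 scores from 5.64 to 15.8.

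The share of L1 summits with a partner was lower among primate than among old names in both lists. Having a partner was also the rule that chose the members, so these shares describe all L1 summits and not the members. Partner shares also moved with score, as given below. Of all replicate 1 peaks 69.9% had a partner, and of all replicate 2 peaks 56.1% did. Among primate L1 summits 250 of 545 had a partner in replicate 1 (45.9%, 41.7% to 50.1%), against 547 of 833 older ones (65.7%, 62.4% to 68.8%). The odds ratio was 0.443 (0.355 to 0.553, exact test, adjusted p = 3.01e-12). In replicate 2 the shares were 249 of 649 (38.4%, 34.7% to 42.2%) and 563 of 1179 (47.8%, 44.9% to 50.6%), with an odds ratio of 0.681 (0.560 to 0.828, exact test, adjusted p = 0.000247). Both primate shares were below those of the whole lists, and so were both old shares. These tests treat summits as units, so they measure spread between sites of this pair of libraries and not between cultures.

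The lineages within each age group varied. In replicate 1 the share with a partner was 46.5% for L1HS and L1PA, 49.0% for L1PB, 35.5% for other L1P and 50.5% for L1MA. It was then 77.2% for L1MB, 78.9% for L1MC, 64.0% for L1MD and 75.9% for L1ME, with 59.5% for other L1M and 69.4% for HAL1. The interval of L1MA (43.5% to 57.6%) did not overlap that of L1MB (68.1% to 84.3%) but did overlap those of L1MD (50.1% to 75.9%) and other L1M (52.7% to 66.0%). In replicate 2 the range was narrower, from 33.3% for other L1P to 54.5% for L1ME. There L1PB, at 48.7%, stood above other L1M (46.7%), HAL1 (42.9%), L1MD (41.5%) and L1MA (40.3%). Of the 23 names with at least 20 replicate 1 summits, L1MC4 was highest with 28 of 32 (87.5%) and L1PA15-16 lowest with 4 of 23 (17.4%). Low shares also occurred in old names, with 6 of 27 for L1MA4A (22.2%) and 6 of 22 for L1M2 (27.3%).

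**Figure D3:**
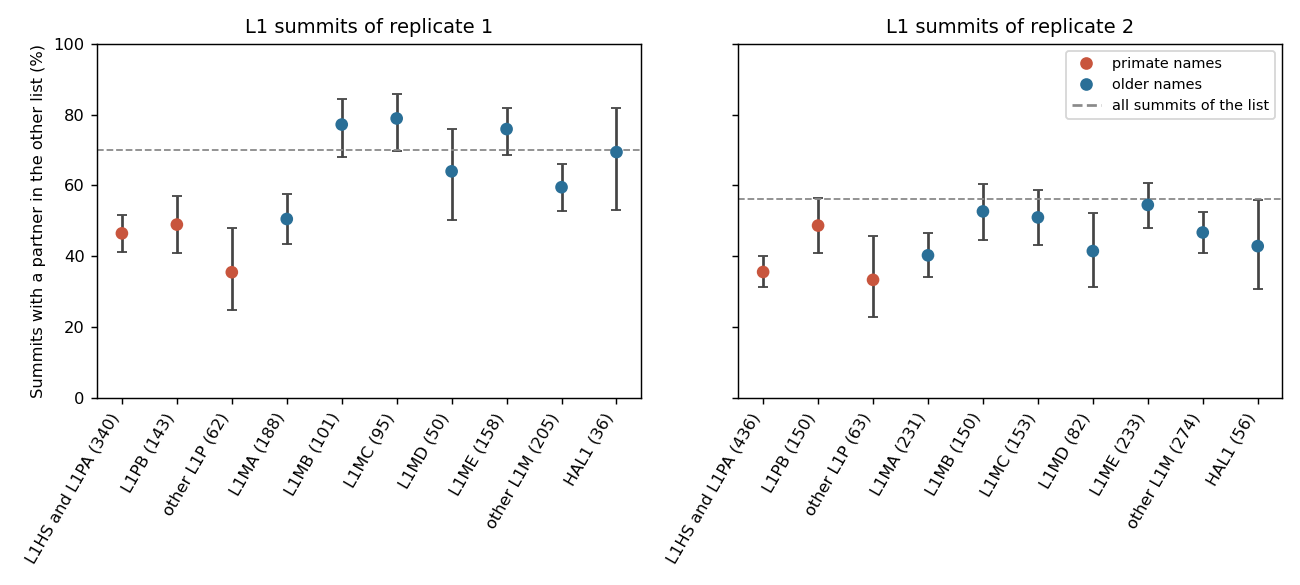
Percentage of L1 summits with a partner in the other list (y axis) for each lineage, with 95% Wilson intervals and the number of summits in parentheses; red points are primate names, blue points older names, and the dashed line is the share of all peaks of that list. In replicate 1 (left) L1MB and L1MC reach 77.2% and 78.9%, while L1HS with L1PA, L1PB, other L1P and L1MA stay between 35.5% and 50.5%; replicate 2 (right) is flatter.

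Scores moved with this difference. The median score of all primate L1 summits was 7.12 in replicate 1 against 10.4 for older ones, and 7.62 against 11.4 in replicate 2, and summits without a partner scored low (medians of 5.12 and 6.22). Within deciles of score the odds ratio in replicate 1 was 0.547 (0.411 to 0.729, Mantel-Haenszel). In replicate 2 it was 0.990 (0.764 to 1.28), so there a difference among summits of similar score was not established. Among replicate 1 summits with scores in the upper 5 deciles, 142 of 161 primate summits (88.2%, 82.3% to 92.3%) and 343 of 356 older ones (96.3%, 93.9% to 97.9%) had a partner. In replicate 2 these shares were 80.3% of 203 and 81.4% of 512.

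L1 summits as a whole recurred less often than other summits. In replicate 1, 57.8% of 1378 L1 summits had a partner, against 70.4% of the 31101 others (odds ratio 0.576, 0.516 to 0.643, exact test, adjusted p = 2.02e-21 over the 12 tests of L1 against other sites). In replicate 2 it was 44.4% of 1830 against 56.6% of 38664 (0.611, 0.556 to 0.672, exact test, adjusted p = 1.26e-23). Within score deciles the odds ratios were 0.812 (0.706 to 0.934) and 0.761 (0.672 to 0.861). When both lists were first limited to summits scoring at or above their median, the odds ratio was 1.14 (0.888 to 1.46) in replicate 1 and 0.789 (0.676 to 0.921) in replicate 2. Of the annotated replicate 1 summits, 790 of 1359 in L1 had a partner, beside 741 of 1265 in L2 and CR1. In ERV1 and other LTR elements it was 784 of 1156. The share in L2 and CR1 was thus close to that in L1, and the share in ERV1 and other LTR elements was higher. Recurrence was not tested between these kinds of repeat.

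Among shared regions, those in L1 had lower scores than the others in replicate 1. There 339 of 797 (42.5%, 39.2% to 46.0%) were above the median of all shared regions, against 49.6% of the 21905 others (odds ratio 0.751, 0.651 to 0.866, exact test, adjusted p = 0.000249). In replicate 2 it was 389 (48.8%) against 49.5% (0.973, 0.844 to 1.12, adjusted p = 0.784, exact test), and whether the replicates differ was not tested. With satellites left out of the others, replicate 2 gave 48.8% against 52.4% (0.866, 0.752 to 0.998, exact test, adjusted p = 0.0864). Replicate 1 then gave an odds ratio of 0.757 (0.655 to 0.873). Compared with the 744 regions in the ancient L2 and CR1 elements, the odds ratios were 1.02 (0.833 to 1.25) and 1.21 (0.989 to 1.48). Compared with the 795 regions in ERV1 and other LTR elements outside the ERVL families, they were 1.19 (0.973 to 1.45) and 1.20 (0.985 to 1.46). None of these 4 passed (exact test, adjusted p from 0.106 to 0.877). Without summits within 1 Mb of a satellite summit both replicate 2 comparisons passed, at 1.29 (1.05 to 1.58) and 1.26 (1.03 to 1.54).

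The distance between the 2 summits of a region was used to choose the members and is given as a description. Its median was 31 bp and 68.1% lay within 50 bp, against 28 bp and 71.5% for the other shared regions, and 10 of the 797 pairs had the same base. The 250 primate regions had a median of 37 bp and the old regions 29 bp. Members thinned towards the 200 bp limit, with 543 pairs at 0 to 50 bp and 29 at 151 to 200 bp, and 23 further L1 summits had their nearest replicate 2 summit at 201 to 250 bp. Just inside was an L1M1 copy near ST8SIA2 at 200 bp, and just outside a HAL1 copy near SLC41A2 at 203 bp. Replicate 2 gave the same L1 name for 759 regions (95.2%), another L1 name for 1, and no L1 for 37, of which 22 had no repeat.

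Primate regions lay between genes more often than old regions. Because the annotation ranks promoters, exons and gene ends above repeats, an L1 region could be only intronic or intergenic, and 7 regions on unplaced sequence or otherwise without annotation were left out. Of the primate regions 172 of 249 were intergenic (69.1%, 63.1% to 74.5%), against 286 of 541 old regions (52.9%, 48.6% to 57.0%). The odds ratio was 1.99 (1.45 to 2.74, exact test, adjusted p = 5.65e-05). By lineage, other L1P was at 81.8%, L1PB at 72.9% and L1HS with L1PA at 65.6%. The old lineages ranged widely, with L1MD at 65.6%, other L1M at 62.8%, L1MA at 61.7%, L1ME at 53.3% (44.4% to 62.0%), L1MC at 40.5%, HAL1 at 40.0% and L1MB at 36.0% (26.1% to 47.3%).

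Distance to genes differed less. Primate regions had a median TSS distance of 53255 bp and old regions one of 43451 bp. Beyond 50 kb lay 131 of 249 primate regions (52.6%, 46.4% to 58.7%) and 247 of 541 old regions (45.7%, 41.5% to 49.9%), an odds ratio of 1.32 (0.978 to 1.79, exact test, adjusted p = 0.0934). Over all L1 summits of a list, with or without a partner, the odds ratio passed the same test at 1.67 in replicate 1 and 1.51 in replicate 2. L1MA regions were the farthest out with a median of 77597 bp, and HAL1 the nearest with 23507 bp.

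**Figure D4:**
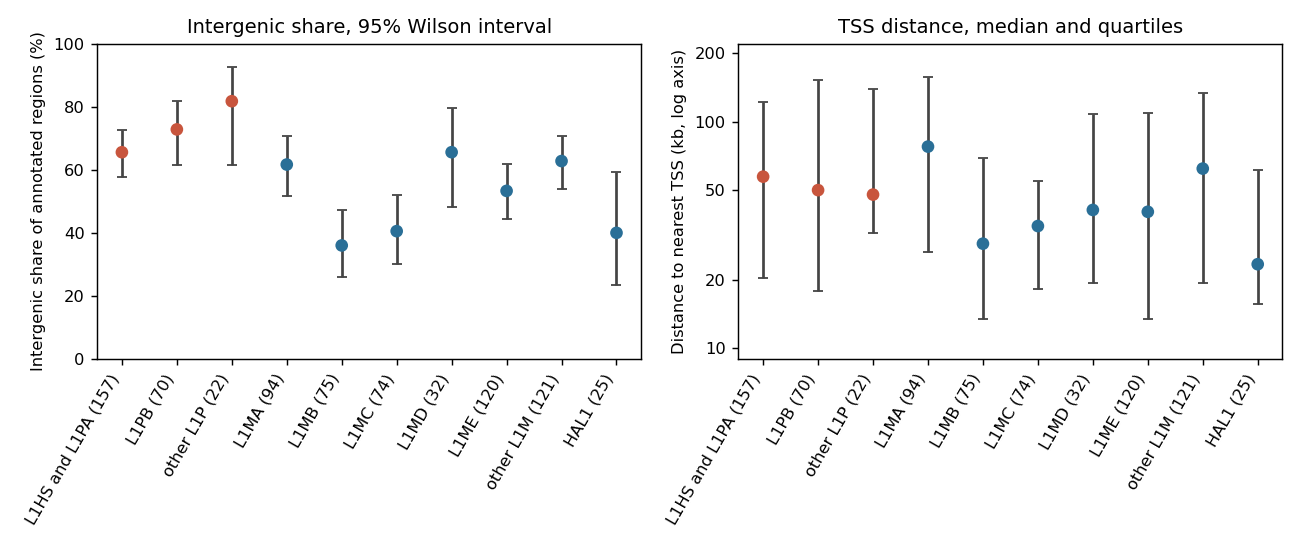
Left, intergenic share of the annotated L1 regions of each lineage (y axis, %) with 95% Wilson intervals; right, distance from the summit to the nearest TSS (y axis, kb, log axis) as median with quartiles; region counts in parentheses, primate names in red. L1MB and L1MC have the lowest intergenic shares, 36.0% and 40.5%, and L1MA has the longest median distance, 77597 bp.

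Against other repeats, L1 regions stood between the old LINEs and the LTR elements. They were intergenic in 458 of 790 cases (58.0%, 54.5% to 61.4%), against 41.8% of L2 and CR1 regions (odds ratio 1.92, 1.57 to 2.35, exact test, adjusted p = 1.18e-09). Regions in ERV1 and other LTR elements were intergenic in 66.5% of cases (0.696, 0.567 to 0.855, exact test, adjusted p = 0.00143). All other shared regions together gave 53.5% (1.20, 1.04 to 1.38, exact test, adjusted p = 0.0271). That call was lost when the comparator also left out promoters, exons and gene ends, where the odds ratio was 1.03 (exact test, adjusted p = 0.784). With satellites left out of the comparator instead, 44.1% of the others were intergenic and the odds ratio was 1.75 (1.51 to 2.02, exact test, adjusted p = 8.53e-14). That comparator still held promoters, exons and gene ends, which cannot be intergenic, whereas L1 regions cannot fall in those classes. A comparator without satellites and without these classes was not tried.

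L1 copies are known to be denser on the X chromosome than on the autosomes. Here 16 of the 797 regions were on X (2.01%, 1.24% to 3.24%), against 285 of 21905 other shared regions (1.30%), with an odds ratio of 1.55 (0.935 to 2.58, exact test, adjusted p = 0.133). No excess was established with these 16 regions, nor over all replicate 1 summits, shared or not (odds ratio 1.40, 0.898 to 2.18, exact test, p = 0.146). Over all replicate 2 summits the odds ratio was 1.52 (1.07 to 2.14, exact test, p = 0.0256). As a share of shared regions outside satellites, L1 made up 4.21% over all sequences. By chromosome it ran from 2.72% on chromosome 16 (16 of 588, 1.68% to 4.37%) to 6.81% on chromosome 21 (16 of 235, 4.23% to 10.8%) among the autosomes. Chromosomes 19 and 22 carried 13 and 10 members, none of them primate, and chromosome 17 carried 18 with 1 primate. On chromosome 11 17 of 30 members were primate and on X 9 of 16, beside 250 of 797 over all sequences (31.4%). These chromosomes were picked after the counts were seen, and their primate shares were not tested. The number of copies of each chromosome in this line was not examined.

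**Figure D5:**
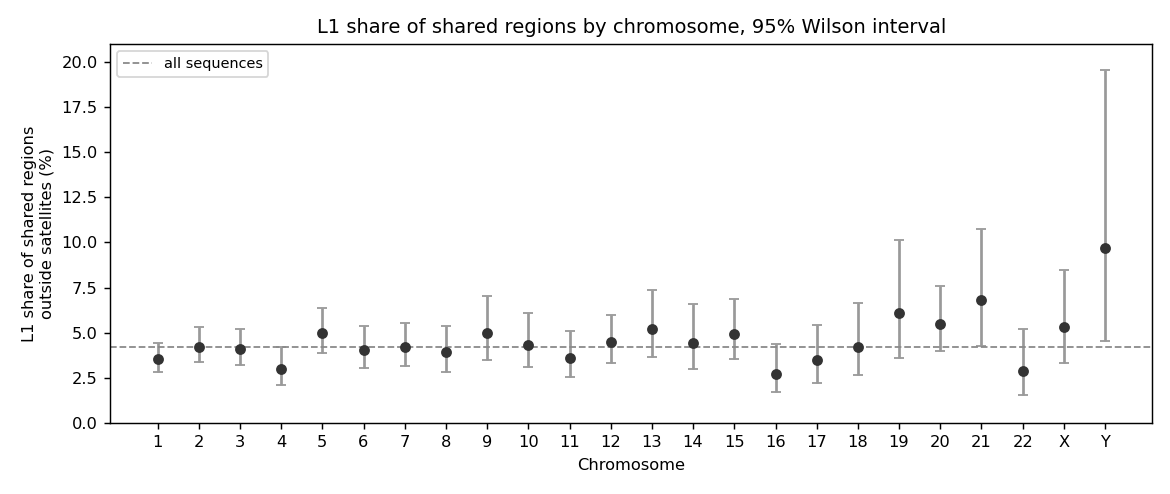
Percentage of shared regions outside satellites that lay in L1 (y axis) for each chromosome (x axis), with 95% Wilson intervals; the dashed line is the value over all sequences, 4.21%. Chromosome 16 is lowest at 2.72%, and chromosome 21 is the highest autosome at 6.81%.

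By the deposited distances, 97 of the 790 annotated regions were under 10 kb from a TSS (12.3%) and 41 under 5 kb (5.19%). The other shared regions, which include promoter sites that the annotation cannot assign to L1, gave 17.0% and 9.67%. The median distance was 46703 bp for L1 and 51248 bp for the others, satellites included. Without satellites the others gave 20.45% and 11.6%, and their median of 36830 bp was nearer to a TSS than that of L1. By the deposited distances the nearest was an L1M1 copy in intron 1 of 2 of the non-coding LINC02494 on chromosome 4. Its summits were at 58535791 and 58535763, 537 bp from the TSS, with scores of 15.8 and 16.5. The L1MEc region within 250 bases of the start of LOC124902118 has a deposited distance to DMAC1 and so is not among the nearest. An L1MB7 copy in intron 1 of 3 of HSBP1L1 on chromosome 18 (79965713 and 79965753), 1131 bp from the TSS, was the strongest of the 5 nearest with scores of 105.4 and 245.6. An L1MC3 copy lay 1167 bp from a start of KCNN2, a calcium-activated potassium channel, on chromosome 5 (114434697 and 114434712), with scores of 11.5 and 44.2. An L1PBa1 copy 1407 bp upstream of SAMD9, an antiviral factor, on chromosome 7 (93119430 and 93119463) scored 21.2 and 35.3. An L1PA13 copy in intron 3 of 3 of the non-coding LINC01506 on chromosome 9 (68545058 and 68545108) scored 12.4 and 25.0, 1544 bp from the TSS. In replicate 1 the HSBP1L1 and SAMD9 regions were above the median of the shared regions, and in replicate 2 the KCNN2 region was as well.

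The regions were scattered over many genes. They had 724 different nearest genes, 675 of them with a single region, 40 with 2 and 9 with 3 or more. The nearest gene was protein-coding for 506 of the 786 regions that had a typed gene (64.4%). Among the other shared regions, satellites included, this share was 57.6%, and the 2 were not compared by a test. The largest number, 6, fell to the non-coding LINC00971 on chromosome 3, spread over 758861 bp, with names L1M2, L1MA3, L1MA4, L1PA5 and L1PA7. Their replicate 1 scores were low, from 3.34 to 19.3. MIR4477B was nearest to 4 regions on 2 chromosomes, 9 and 20. With 3 regions each came ANXA2P3, BPY2C, FRG1DP, LINC00879, LINC01410, LINC02199 and LINC02223, all non-coding or pseudogenes except BPY2C. Among intronic regions 329 of 332 could be matched to a host gene through the RefSeq table, and 84 (25.3%) were in the first intron. The first-intron share of other sites was not computed. SBF2, a regulator of membrane traffic, and STXBP5L, a syntaxin-binding protein, each hosted 3.

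Of the 40 pigment and melanocyte genes listed, 4 were the nearest gene of a region (10.0%), beside 473 of 20033 protein-coding genes (2.36%). The count is small, and no test was made of it. OCA2, a melanosomal transporter, had 2 regions on chromosome 15. The stronger was an L1MC5 copy (28152088 and 28152151) with scores of 106.9 and 153.3, 52776 bp upstream of OCA2 in intron 70 of 92 of the neighbouring gene HERC2. The weaker was an intergenic L1ME3A copy (27737911 and 27737917) with scores of 8.54 and 9.09, 361401 bp from the TSS.

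An L1MB3 copy lay in intron 1 of 40 of MYO5A, the motor that carries melanosomes along actin, on chromosome 15 (52499587 and 52499591), with scores of 14.9 and 19.2. An L1MC4 copy lay 52138 bp upstream of LYST, a regulator of lysosome and melanosome size, on chromosome 1 (235935846 and 235935861), with scores of 14.3 and 16.4. An L1PA16 copy lay in intron 1 of 2 of RAB38, a small GTPase that delivers pigment enzymes to melanosomes, on chromosome 11 (88154939 and 88154892), with scores of 6.95 and 2.46. Of these 5 regions only the OCA2 and HERC2 region was above the median of the shared regions, and the RAB38 region was near the lowest scores of replicate 2. The other 36 listed genes, MITF and MC1R among them, were not the nearest gene of any L1 region.

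Some regions of the same name lay beside related genes. L1PA8 was singled out after its values were seen: 7 of its 14 regions lay near chromosome ends, by olfactory receptor genes of the OR4F group or by PDCD2. They were on chromosome 1 (433109, 434280 and 668660 in replicate 1), chromosome 6 (170657692 and 170659193), chromosome 8 (146588) and chromosome 15 (101893832). Replicate 1 scores were 16.6, 80.6, 20.2, 10.7, 36.3, 100.2 and 7.12 in that order, and replicate 2 scores were 3.43, 48.2, 13.9, 9.09, 14.3, 54.6 and 3.93. All 7 stood higher among the shared regions in replicate 1 than in replicate 2, as did 2 of the other 7 L1PA8 regions and 311 of all 797 regions (39.0%). How far these 7 regions share their sequence was not tested. Likewise the 3 regions nearest to BPY2C were all L1PREC2 and lay 36598 bp, 36611 bp and 36655 bp from its annotated starts, with replicate 1 scores from 17.5 to 25.0. L1MD2 regions lay 2128 bp, 2104 bp and 2094 bp from starts of LIMS1, LIMS3-LOC440895 and LIMS3. L1MC5a regions lay in intron 18 of DDX12P, of DDX11 and of LOC642846. Regions of such sets entered the tests as separate units, and whether they are copies of 1 sequence was not tested.

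Regions of this kind were close to each other only occasionally. Within 7 kb of each other lay 18 pairs of neighbouring members, which held 35 regions, and 8 pairs had the same L1 name. The closest pair was 2 L1M3de summits 781 bp apart near the non-coding NAMA on chromosome 9, with replicate 1 scores of 38.4 and 14.1. Within 1 Mb of a satellite summit lay 35 regions (4.39%), 11 of them primate and 24 old. Of the other shared regions outside satellites 490 of 18132 lay that near (2.70%), of the L2 and CR1 regions 11 of 744 (1.48%), and of those in ERV1 and other LTR elements 32 of 795 (4.03%). These shares were not tested.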

How the data were processed

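Each ChIP sample had a peak list, and the samples were grouped by title. Per the file headers, the authors annotated a file of peak summits from a single sample with HOMER's annotatePeaks.pl on hg38, giving a peak score of unstated scale and a distance to the nearest TSS. Summits have no width. The submitters' processing notes name FastQC 0.11.7, cutadapt 2.8, Bowtie2 2.3.5, MACS2 2.1.2 and SAMtools 1.9 without their roles; control, threshold and how multi-mapping reads were treated are not given in the sources used here, and this can affect young repeats most. Read depth is unknown.

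Members and lists were chosen with earlier results of these data known. Summits were paired within 200 bp (Python 3.11.15, scipy 1.17.1, statsmodels 0.14.6). The test of shares was Fisher's two-sided exact test, Benjamini-Hochberg adjusted over 6 tests (primate against old) and 12 tests (L1 against other sites), with 0.05 as threshold. Intervals of shares are 95% Wilson intervals covering counting error only, and those of odds ratios are from the normal approximation of the log. Pairing and tests were tested on simulated data. The text gives the 5 strongest regions of each age, the strongest of each lineage and the 5 nearest to a TSS by deposited distance. It also gives the genes nearest to most regions and listed pigment genes. A planned motif test around all summits was not run because no genome sequence was used here. Alternatives changed the pairing, the definition of young, the comparator, scores, sequences and lists.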

Additional observations from a re-analysis of the deposited data

How the results depend on the processing

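Of 110 alternative odds ratios, 91 kept direction and side of the threshold. The number of L1 regions ran from 543 (pairing within 50 bp) to 866 (500 bp). No cause was tested for what follows. With both lists limited to scores at or above their median, odds ratios were 1.14 (partner share, L1 against others, replicate 1), 1.01 (partner share, primate against old, replicate 2), 1.22 (intergenic share, L1 against others, exact test, adjusted p = 0.0893) and, for scores, 0.921 (L2 and CR1, replicate 1), 0.884 (ERV1 and other LTR, replicate 1) and 1.11 (other regions, replicate 2). Within score deciles the primate partner share in replicate 2 was 0.990. With L1HS and L1PA2 to L1PA8 as young, the replicate 2 score odds ratio was 0.540. Without promoters, exons and gene ends in the comparator, the intergenic odds ratio was 1.03. For primate against old beyond a distance of 10 kb it was 0.878.

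Without replicate 2 and without replicate 1, using all summits of the other list, the odds ratio beyond 50 kb was 1.67 and 1.51 and that for X was 1.40 and 1.52. Partner shares need both lists. Added after seeing the data were 2 settings. Without summits within 1 Mb of a satellite summit, the replicate 2 score odds ratios were 1.03 (other regions), 1.29 (L2 and CR1) and 1.26 (ERV1 and other LTR). With L1MA counted as young, they were 0.660 (replicate 1) and 0.672 (replicate 2) for scores and 1.64 beyond 50 kb. No paired analysis was possible because the comparisons were between kinds of site within a list and not between groups of samples, and a single group of samples was analysed.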

Other observations

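L1 summits found in only 1 list were weak with some exceptions. In replicate 1 the 581 without a partner had a median score of 5.12 and 295 of them carried primate names (50.8%), against 31.4% of those with a partner. In replicate 2 the 1018 without a partner had a median of 6.22, and 39.3% were primate. The strongest in replicate 2 was an L1MB5 copy on chromosome 1 (235919608), score 66.5, 35900 bp upstream of LYST, whose nearest replicate 1 summit was 300 bp away. In replicate 1 it was an L1PA4 copy on chromosome 21 (9002009), score 34.1, with the nearest replicate 2 summit 1437 bp away. In intron 1 of 5 of DNAJC15, which encodes a mitochondrial cochaperone, each list had an unpaired L1PB1 summit, at 43058510 in replicate 1 and 43057819 in replicate 2 on chromosome 13, 691 bp apart, with scores of 24.4 and 57.1.

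L1M1 regions stood higher among the shared regions in replicate 1 than in replicate 2 in 31 of 55 cases (56.4%), L1PA3 in 11 of 14 and L1MB8 in 2 of 13. These names were chosen after their values were seen, and nothing was tested on them.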
